A study of Mus musculus with 8 samples.

Results

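The Reg genes encode small secreted proteins built around a C-type lectin fold. The 7 mouse members on this array, Reg1, Reg2, Reg3a, Reg3b, Reg3d, Reg3g and Reg4, were taken by gene symbol from the annotation of the array, and each had 1 probe set among 22206 in all. They were compared between mice lacking IκBα in the intestinal epithelium and their wild-type siblings, 4 arrays of each. Of the members, Reg4 was lower in the knockout, by a mean log2 difference of −1.55. Reg3b and Reg3g, the antimicrobial lectins of the gut, differed by 0.14 and 0.28, and neither passed the test. Reg1, Reg2 and Reg3d did not differ alike in the 4 sibling pairs.

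Reg3b and Reg3g proteins are released by enterocytes and Paneth cells and kill bacteria or keep them off the mucosal surface. Their genes are known targets of microbial signals that run through MyD88 in the epithelium and of interleukin-22 acting through STAT3. Reg1 and Reg2 were described first in the pancreas, where acinar cells make them, and Reg1 is also made in the intestine. Reg3d is a less studied member, known best from the pancreas and stomach, and Reg3a is made in the pancreas and the small bowel. Reg4 is made by enteroendocrine and other secretory cells of the gut, and its product binds carbohydrate without calcium. IκBα, the product of Nfkbia, keeps NF-κB in the cytoplasm, and NF-κB in turn drives many genes of innate defence.

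The knockout mice (KO) carried a Villin-Cre transgene, which is active in the epithelium of the intestine, and floxed alleles whose recombination removes the promoter and first exons of Nfkbia. The controls (WT) were littermate siblings of the KO mice, and the sources used here do not say whether they carried Cre or a floxed allele. All mice were untreated as far as the labels say. Pair 1 was 2 males of 8 weeks, pair 2 was 2 females of 11 weeks, pair 3 was a KO male and a WT female of 8 weeks, and pair 4 was a KO female and a WT male of 9 weeks. RNA came from whole homogenized duodenum by the series design and from small intestine by the sample labels, so that fewer cells of a type and less RNA per cell cannot be told apart in any value given here. The enterocyte genes Apoa1, an apolipoprotein of chylomicrons, and Anpep, a brush border peptidase, had mean log2 values of 14.09 and 13.87 in KO and 14.28 and 14.12 in WT. Pancreatic and stomach genes were measured too, and their values stand beside the members they moved with.

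The 8 arrays had medians from 6.77 to 6.81 on the log2 scale of the deposited values, and RNA integrity numbers from 7.0 to 8.7. The 4 pair means of a probe set had been evened out before deposit, so KO was compared with WT inside each pair, and the value of a single array is not a free level of its own. The deleted gene was low in the KO arrays: Nfkbia differed by −2.93, −3.26, −1.29 and −3.13 in pairs 1 to 4 (mean −2.65 ± 0.918, SD, n = 4 pairs, limma adjusted p = 0.0130). That call was lost without pair 1, 2 or 4, with adjusted p-values of 0.0545, 0.0582 and 0.0512. Values after ± are SDs of the 4 within-pair differences unless stated. A gene counts as called where its limma p, with the sibling pair as a block and Benjamini-Hochberg adjustment over all 22206 probe sets, is under 0.05. By that rule 1 of the 7 members was called, against a background of 5.86% of all probe sets. It was called lower, as were 2.70% of all probe sets (599), and 3.16% (702) were called higher. Centred on housekeeping genes the split was 5735 lower and 496 higher, and centred on enterocyte markers 179 and 7472.

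The bases just before the start of 5 members are shown to let their sequences be set beside their values. They are the 250 bases before the RefSeq start of each gene on GRCm38.p6, 5′ to 3′ on the strand of the gene. Capitals mark matches on either strand to 4 motifs: the NF-κB consensus, the STAT motif TTCNNNGAA, the E-box CACCTG and the TATA box TATAAA.
Reg3g, chr6:78468875-78469124, minus strand: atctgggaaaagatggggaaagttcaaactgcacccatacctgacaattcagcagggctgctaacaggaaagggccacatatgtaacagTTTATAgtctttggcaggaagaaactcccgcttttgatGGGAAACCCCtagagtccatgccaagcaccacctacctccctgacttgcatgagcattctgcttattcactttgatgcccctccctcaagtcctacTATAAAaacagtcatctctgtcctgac
Reg3b, chr6:78370635-78370884, plus strand: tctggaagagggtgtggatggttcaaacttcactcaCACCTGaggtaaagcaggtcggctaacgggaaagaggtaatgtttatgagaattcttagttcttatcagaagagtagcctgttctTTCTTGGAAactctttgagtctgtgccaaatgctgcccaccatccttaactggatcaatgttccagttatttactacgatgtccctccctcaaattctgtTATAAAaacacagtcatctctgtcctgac
Reg3d, chr6:78378866-78379115, minus strand: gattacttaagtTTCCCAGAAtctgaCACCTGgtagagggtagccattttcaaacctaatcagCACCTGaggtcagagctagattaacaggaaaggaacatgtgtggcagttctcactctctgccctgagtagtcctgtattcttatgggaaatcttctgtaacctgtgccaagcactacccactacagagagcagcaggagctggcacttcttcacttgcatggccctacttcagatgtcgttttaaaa
Reg2, chr6:78404905-78405154, plus strand: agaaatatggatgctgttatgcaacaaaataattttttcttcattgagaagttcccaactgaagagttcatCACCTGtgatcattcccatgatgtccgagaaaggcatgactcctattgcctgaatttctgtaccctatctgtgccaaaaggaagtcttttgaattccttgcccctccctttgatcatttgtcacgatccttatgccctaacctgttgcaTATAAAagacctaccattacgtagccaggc
Reg4, chr3:98221906-98222155, plus strand: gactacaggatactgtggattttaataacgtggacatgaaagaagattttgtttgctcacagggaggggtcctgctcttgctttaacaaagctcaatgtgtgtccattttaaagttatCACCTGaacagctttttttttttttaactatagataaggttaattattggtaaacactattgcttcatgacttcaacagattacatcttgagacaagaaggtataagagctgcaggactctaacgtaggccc

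Reg3g held a match to the NF-κB consensus, from 123 to 114 bases upstream. The other 6 members held none in this window, and 7.01% of the 27025 promoters in the RefSeq table hold one. Reg3b and Reg3d each held 1 STAT match, starting 129 and 238 bases upstream, against 7.18% of all promoters. A CACCTG match lay in 5 of the 7 members, Reg4, Reg2, Reg3a, Reg3b and Reg3d, against 17.1% of all promoters. TATAAA began from 27 to 30 bases upstream in Reg1, Reg2, Reg3b and Reg3g, with a further match on the opposite strand of Reg3g 161 bases upstream, and 13.0% of all promoters hold it. None of the matches overlapped another. In pairwise global alignment the Reg3b and Reg3g windows were identical at 177 of 257 columns (68.9%), and the other 20 pairs of members at 47.8% to 58.5%. These matches describe letters and are no evidence of binding. In the RefSeq gene order, 6 members lie side by side on chromosome 6, in the order Reg3b, Reg3d, Reg3a, Reg2, Reg1 and Reg3g, with 1 pseudogene and no other protein-coding gene among them. Reg4 lies apart from them on chromosome 3.

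The first question was whether the antimicrobial Reg3 genes differ where the epithelium lacks IκBα. Reg3g, which acts on Gram-positive bacteria, had KO log2 values of 13.89, 13.94, 13.96 and 13.95 in pairs 1 to 4 and WT values of 13.71, 13.67, 13.62 and 13.64. All KO arrays lay above all WT arrays, which was so for 15.9% of all probe sets. The mean difference of 0.275 ± 0.0695 is 1.21-fold, with a 95% interval from 0.11 to 0.44, and it missed the threshold (limma adjusted p = 0.0684). The 4 differences, 0.18, 0.27, 0.34 and 0.31, were close to one another. The gene was called without the sibling block (adjusted p = 0.00123), a fit that called 34.4% of all probe sets, with a random block (0.0281) and with trend and robust variance (0.0178).

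Reg3b, a close relative of Reg3g that acts also on Gram-negative bacteria, had KO values of 14.34, 14.32, 14.38 and 14.38 and WT values of 14.24, 14.25, 14.20 and 14.18. KO again lay above WT without overlap. The mean difference was 0.137 ± 0.0624, with a 95% interval from −0.03 to 0.30 (limma adjusted p = 0.254), and it turned to −0.0393 when arrays were centred on housekeeping genes. The housekeeping genes had a median difference of 0.196. Centring on their mean in each array moved the median difference of all probe sets from −0.015 to −0.192. Reg3g stood at 0.0982 and Reg3a at 0.0182 under it.

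Both probe sets sit near the upper end of the scale of the arrays. The highest value on any array was 14.51, which is 0.22 above the mean of Reg3b and 0.71 above that of Reg3g. Of the 17 probe sets with means at or above that of Reg3g, 0 were called by limma with the block, with 2 at an unadjusted p under 0.05 and 4 called without the block. Their median absolute difference was 0.06, against 0.135 over all probe sets, and the widest of them, 0.27, was that of Reg3g. Whether differences are compressed at this end of the scale was not tested. The sources used here give no probe positions, so cross-hybridisation between these close relatives was not tested either.

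Reg3a, a further Reg3 gene, had KO values of 10.20, 10.17, 10.03 and 9.96 and WT values of 9.81, 9.84, 9.95 and 9.98. KO was above WT by 0.39 and 0.33 in pairs 1 and 2, and the difference was 0.08 and −0.02 in pairs 3 and 4. The groups overlapped, and the mean of 0.195 ± 0.196 was not called (limma adjusted p = 0.233, 95% interval −0.03 to 0.42).

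**Figure D1:**
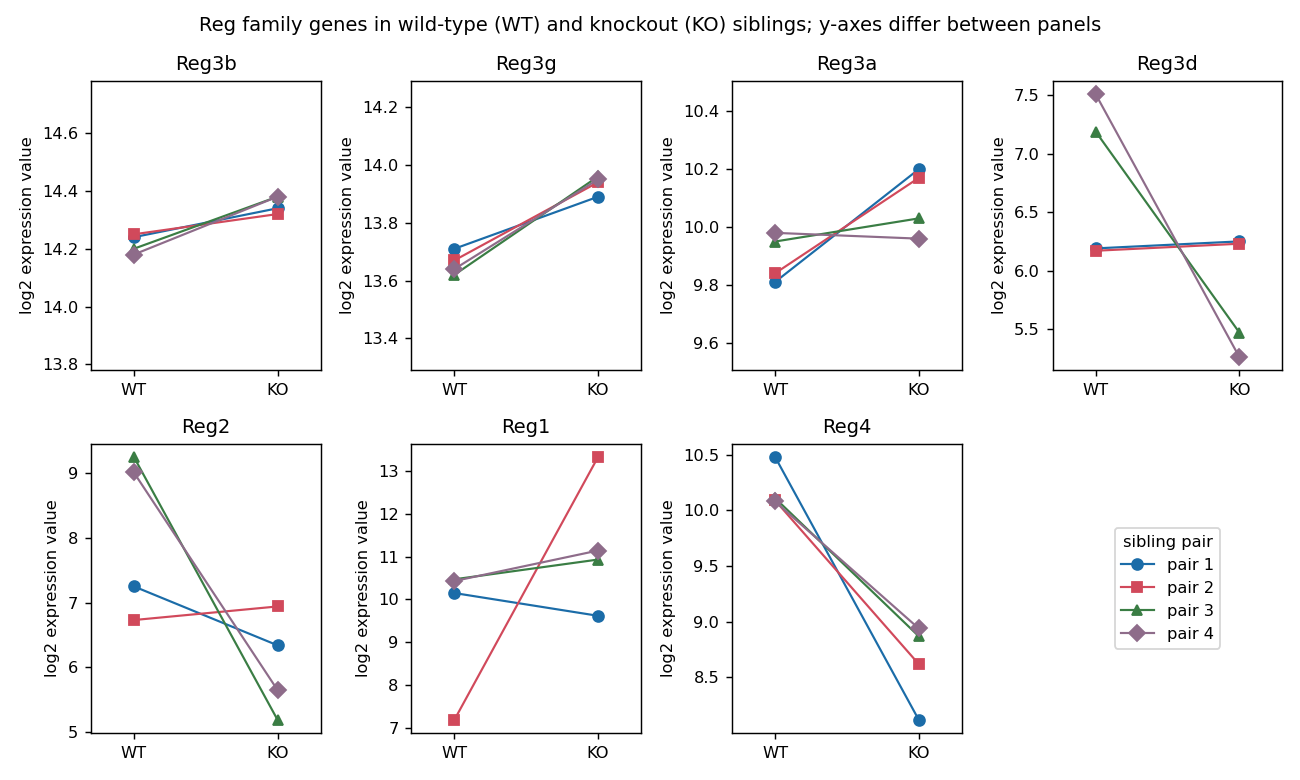
Log2 value of each of the 7 Reg probe sets (panels) on the 8 arrays, with the WT and KO array of a sibling pair joined by a line and with vertical axes that differ between panels. Reg3b and Reg3g are slightly and evenly higher in KO in all 4 pairs, Reg4 is lower in all 4, Reg2 and Reg3d are far lower in KO in pairs 3 and 4, and Reg1 differs by 6.12 in pair 2.

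Reg4 was the member that fell. Its KO log2 values were 8.12, 8.62, 8.87 and 8.94 and its WT values 10.48, 10.09, 10.11 and 10.08 in pairs 1 to 4. Every KO array lay below every WT array, as for 17.2% of all probe sets, and the smallest difference within a pair was −1.14. The mean difference of −1.55 ± 0.556 is a 2.93-fold lower value (limma adjusted p = 0.0156, 95% interval −2.03 to −1.08). Pair 1, with −2.36, had a wider difference than pairs 2, 3 and 4, with −1.47, −1.24 and −1.14.

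The call on Reg4 held in 15 of 18 settings, with values from −1.92 to −1.14. It was lost without pair 2 (−1.58, limma adjusted p = 0.0645) and with only pairs 1 and 2 (−1.92, adjusted p = 0.135) or only pairs 3 and 4 (−1.19, adjusted p = 0.109). With sex or the RNA integrity number added to the block it remained called, with adjusted p-values of 0.0412 and 0.0411.

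The design also allows the Reg3 genes to be set against Reg4 inside the same animals. The quantity compared is the KO minus WT difference of a Reg3 gene less that of Reg4 in the same pair, which cancels whatever shifts both probe sets of an array alike. For Reg3g this was 2.54, 1.74, 1.58 and 1.45 in pairs 1 to 4 (mean 1.83 ± 0.490). For Reg3b it was 2.46, 1.54, 1.42 and 1.34 (mean 1.69 ± 0.520), and for Reg3a 2.75, 1.80, 1.32 and 1.12 (mean 1.75 ± 0.727). All 3 were above 0 in 4 of 4 pairs. The exact two-sided sign-flip test gave p = 0.125 for each, the smallest that 4 pairs allow, and 0.167 after Benjamini-Hochberg adjustment over 4 contrasts, so the sign-flip test cannot pass 0.05 here. The contrast of Reg3d took both signs, with 2.42, 1.53, −0.48 and −1.11 (mean 0.59 ± 1.66, exact sign-flip p = 0.625), and its mean was −0.02 without pair 1. The difference of Reg4 itself makes up most of each contrast with Reg3a, Reg3b and Reg3g.

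**Figure D2:**
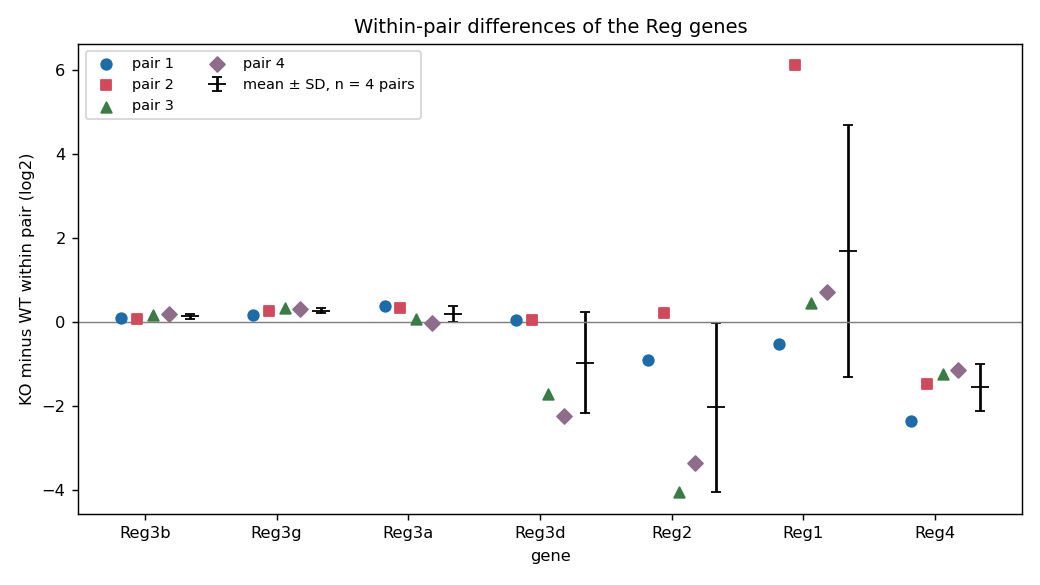
KO minus WT difference on the log2 scale for the 7 Reg genes, with 1 point per sibling pair and, as bars, the mean and SD of the 4 pairs. Reg4 lies below 0 in every pair and Reg3b and Reg3g just above 0, while the points of Reg1, Reg2 and Reg3d are spread over several log2 units.

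Reg4 marks secretory cells, so the markers of those cells were read beside it. Of 23 enteroendocrine genes measured, 6 were called lower and 1 higher, and their median differences in pairs 1 to 4 were −0.20, −0.32, −0.19 and −0.36. The split depended on the scaling: it was 12 lower and 1 higher centred on housekeeping genes, and 1 lower and 3 higher centred on enterocyte markers. Without pair 1, 2, 3 or 4 the counts called lower were 1, 0, 3 and 0. Chga, which encodes the granule protein chromogranin A, fell by 0.73 on the log2 scale (SD 0.269, limma adjusted p = 0.0233). Sct, the gene of the hormone secretin, fell by 0.54 (SD 0.0574, adjusted p = 0.0154). Tac1, which encodes the precursor of substance P, rose by 1.56 ± 0.362 (adjusted p = 0.00571). The call on Chga was lost without pair 2, 3 or 4 (adjusted p = 0.0866, 0.0592 and 0.0812), and that on Sct without pair 1, 2 or 4 (0.0597, 0.0780 and 0.0587) and with a random block (0.125). Tac1 lost its call with a random block (0.0641). The 2 members of that list with the highest values, Sst (somatostatin) and Cck (cholecystokinin), differed by −0.11 ± 0.211 and −0.03 ± 0.498 and were not called.

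Goblet cell genes, a further secretory set, had medians near 0. Of 16 measured, 2 were called lower and 0 higher, and the pair medians were −0.05, −0.01, 0.04 and 0.13. The 2 were Gfi1, a transcription factor of secretory cells (−0.43 ± 0.137, limma adjusted p = 0.0355), and Tpsg1 (−0.39 ± 0.0709, adjusted p = 0.0336). Both calls were lost when any 1 pair was left out, with adjusted p-values from 0.0758 to 0.125 and from 0.0737 to 0.127, and centred on enterocyte markers 7 goblet genes were called higher and 0 lower (limma, 10 at an unadjusted p under 0.05). The mucin gene Muc2 and the secreted Clca1, the leading goblet products, had differences of 0.08 ± 0.255 and −0.03 ± 0.0939.

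Of 12 Paneth cell genes, 2 were called lower and 0 higher, with 10 lower at an unadjusted p under 0.05. Over all 22206 probe sets, 2940 were higher and 3158 lower at that unadjusted level, 27.5% in either direction. The pair medians of the Paneth list were −0.57, −0.74, 0.10 and −0.91. Without pair 1, 2, 3 or 4 the counts called lower were 0, 0, 6 and 0, with 6, 7, 11 and 7 at an unadjusted p under 0.05. Centred on housekeeping genes 10 were lower and 0 higher, and centred on enterocyte markers 1 was lower and 2 higher. Nupr1 (−0.85 ± 0.338, limma adjusted p = 0.0234) and Habp2 (−1.18 ± 0.600, adjusted p = 0.0333) were the 2 called, and both calls were lost without pair 1, 2 or 4 (0.0758, 0.0927 and 0.0792 for Nupr1, and 0.104, 0.107 and 0.0918 for Habp2). The defensins Defa3 and Defa17 shared identical values and differed by −0.52 ± 0.477 (adjusted p = 0.122). Among 17 enterocyte genes, with pair medians of −0.15, −0.13, −0.18 and −0.42, 2 were called, both lower, the lactase gene Lct (−2.84 ± 1.38, adjusted p = 0.0270) and the trehalase gene Treh (−0.53 ± 0.208, adjusted p = 0.0337). Lct lost its call without pair 1 or 2 (0.0801 and 0.0886), and Treh when any 1 pair was left out (0.0696 to 0.107). The part of any of these lists in the difference of Reg4 was not tested.

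**Figure D3:**
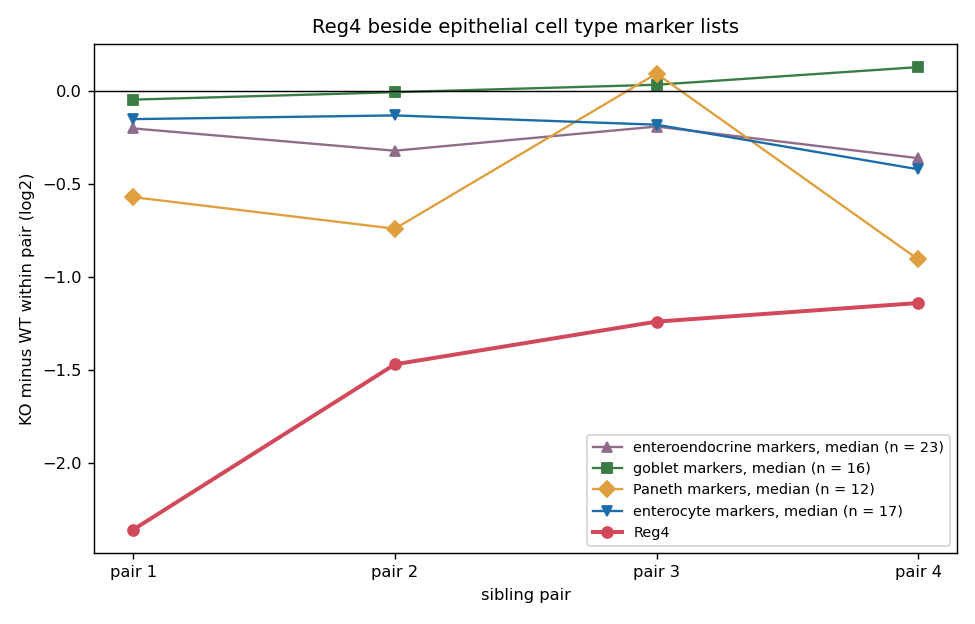
KO minus WT difference of Reg4 in the 4 sibling pairs on the log2 scale beside the median differences of the enteroendocrine, goblet, Paneth cell and enterocyte gene lists in the same pairs. Reg4 differs by −2.36 to −1.14, further from 0 than the list medians, which run from −0.91 to 0.13.

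The genes whose 4 within-pair differences were nearest to those of Reg4 were sought among 18583 named genes, by the root mean square distance over the 4 pairs. They were the cytochromes P450 Cyp2c65 (distance 0.388) and Cyp2c66 (0.408), oxidases of fatty acids and drugs in the gut, and Zyg11a (0.467). Cyp2c65 differed by −2.99, −1.03, −1.35 and −1.15, and Cyp2c66 by −1.87, −0.83, −1.31 and −1.24. Both were called (limma adjusted p = 0.0382 and 0.0136), as was Zyg11a (adjusted p = 0.0161), whose KO mean of 4.72 is below the background level of 5.65. Cyp2c65 lost its call without pair 2, 3 or 4 (0.0909, 0.0784 and 0.0839), Cyp2c66 without pair 4 (0.0504) and Zyg11a without pair 1 or 2 (0.0567 and 0.0641). The background level is the 95th percentile over the means of 1091 probe sets for olfactory receptors, whose median is 4.13. Differences that reach below that level may be understated, which was not tested. The distances come from 4 differences that share the same arrays.

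Reg2 and Reg3d had their widest differences in pairs 3 and 4. Reg2 had KO values of 6.34, 6.94, 5.19 and 5.65 and WT values of 7.25, 6.73, 9.25 and 9.01. Its differences were −0.91, 0.21, −4.06 and −3.36, with a mean of −2.03 ± 2.01 (limma adjusted p = 0.120, 95% interval −3.66 to −0.40). Centred on housekeeping genes it was called (−2.21, adjusted p = 0.0357), as it was without the block (adjusted p = 0.0304). The groups overlapped through pair 2. The KO values of pairs 3 and 4 were at or below the background level.

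Reg3d had KO values of 6.25, 6.23, 5.47 and 5.26 and WT values of 6.19, 6.17, 7.19 and 7.51. It differed by 0.06 in both pairs 1 and 2 and by −1.72 and −2.25 in pairs 3 and 4 (mean −0.96 ± 1.2, limma adjusted p = 0.188). In pairs 3 and 4 the KO values were again below background. Neither gene's mean describes all 4 pairs.

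Acinar genes of the pancreas, which encode its digestive enzymes, moved with Reg2 and Reg3d by pair. Over 22 of them the median differences were −0.51, −0.04, −3.55 and −3.30 in pairs 1 to 4, and 5, 2, 21 and 21 of the 22 were lower by at least 1 on the log2 scale. Higher by at least 1 were 0, 4, 0 and 0 of the 22. Their mean level ran from 6.57 to 7.99 in KO and from 7.95 to 10.08 in WT, and 21 of the 22 had means above background. The list had 2 called genes, both lower, with 15 lower and 0 higher at an unadjusted p under 0.05, against 27.5% of all probe sets in either direction. Centred on housekeeping genes 16 were called lower and 0 higher, and centred on enterocyte markers 20 lower and 0 higher. With pairs 3 and 4 only, 13 were called lower, of 26 probe sets called in all. The 2 called genes were lower in all 4 pairs, as were others of the list, Cela1 among them. Clps, the gene of colipase, differed by −2.57, −2.40, −2.25 and −3.50 (limma adjusted p = 0.00335), and the lipase gene Pnliprp2 by −2.31, −2.45, −1.72 and −2.36 (adjusted p = 0.00183). Spink1, a trypsin inhibitor made also by gut epithelium, differed by −0.15 ± 0.147 and was not called.

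The nearest patterns to Reg2 among 18583 genes were those of Cela1 (distance 0.289), Cela2a (0.303) and Pnliprp1 (0.361), and the products of all 3 are pancreatic elastases or a lipase relative. Cela1 differed by −0.44, −0.09, −3.93 and −3.28, and Cela2a by −0.64, 0.31, −3.53 and −3.30. Stomach genes had medians of −0.48, −0.45, −0.97 and −0.89, and Gkn2, a gastrokine of the gastric surface, differed by −1.27, −1.14, −5.16 and −5.41. Of 10 stomach genes 2 were called, Muc5ac (−0.74 ± 0.435, limma adjusted p = 0.0495) and Pgc (−0.61 ± 0.197, adjusted p = 0.0231), both lower. Only 6 of the 10 had means above the background level of 5.65. The Pgc means, 4.555 in KO and 5.162 in WT, were below it, and the KO mean of Muc5ac, 5.655, was at it. Of 7 islet genes 1 was called, Nkx6-1 (−0.38 ± 0.112, adjusted p = 0.0418), and the pair medians were −0.08, −0.23, −0.30 and −0.13. The calls on Muc5ac, Pgc and Nkx6-1 were lost when any 1 pair was left out, with adjusted p-values from 0.0641 to 0.131, 0.0643 to 0.0784 and 0.0894 to 0.146. The share of pancreatic or gastric tissue in each sample, and its part in the values of Reg2 and Reg3d, was not tested.

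**Figure D4:**
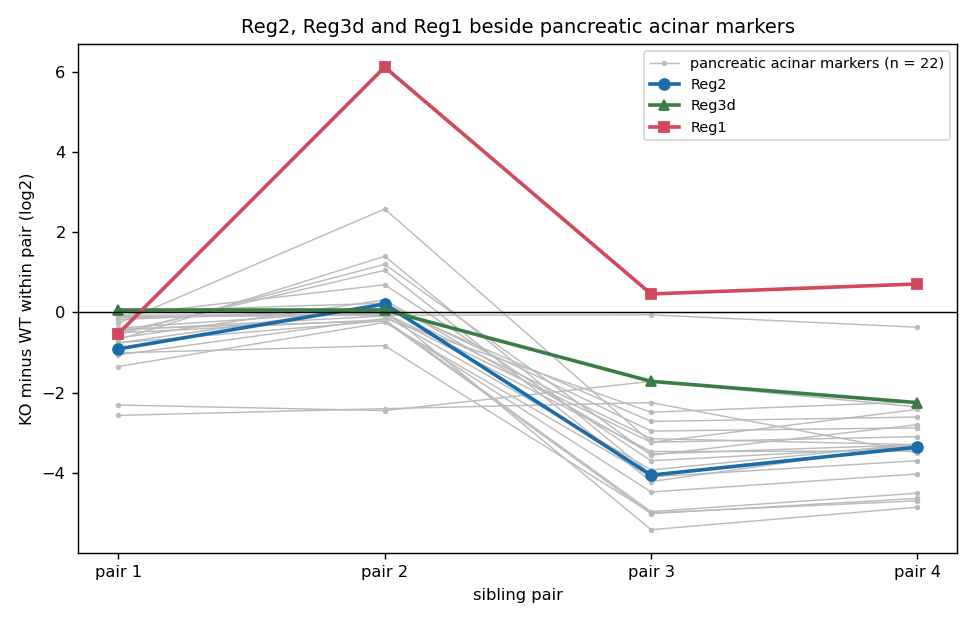
KO minus WT differences of Reg1, Reg2 and Reg3d on the log2 scale in the 4 sibling pairs, with 22 acinar genes of the pancreas as thin grey lines. Reg2 and Reg3d lie between −0.91 and 0.21 in pairs 1 and 2 and below −1 in pairs 3 and 4, with 21 of the 22 acinar genes, while Reg1 peaks at 6.12 in pair 2.

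Reg1 had another pattern, set by pair 2. Its KO values were 9.62, 13.32, 10.93 and 11.14 and its WT values 10.15, 7.20, 10.47 and 10.43. The KO array of pair 2 was the highest of the 8 and its WT sibling the lowest, a difference of 6.12, while pairs 1, 3 and 4 differed by −0.53, 0.46 and 0.71. The mean of 1.69 ± 3.0 was not called (limma adjusted p = 0.327, 95% interval −0.73 to 4.11). Without pair 2 the mean was 0.213.

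The genes nearest to Reg1 in pattern were Akp3, an intestinal alkaline phosphatase of the duodenum (distance 0.550), Sult6b2 (1.15) and Slc19a3, a thiamine transporter (1.21). Akp3 differed by 0.11, 5.43, 0.82 and 1.15, and Sult6b2 by 1.21, 6.69, 1.42 and 1.73. None of the 3 was called, with limma adjusted p-values of 0.194, 0.109 and 0.267. The acinar list had a median of −0.04 in pair 2, with single genes from −2.45 to 2.58, the upper end being the amylase gene Amy2a5. In that pair 4 of the 22 acinar genes were higher by at least 1 and 2 were lower by at least 1. In pairs 1, 3 and 4, 0 were higher by at least 1. Reg1 thus did not share the pattern of Reg2 over the pairs, although both are known from acinar cells.

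The genes that act upstream of the Reg3 lectins were read next. Of 25 cytokines, receptors, Toll-like receptors and signalling proteins, all measured, 1 was called higher and 0 lower, with a median difference of 0.035 against −0.015 over all probe sets. The 1 was Il1b, which encodes the cytokine interleukin-1β (0.67 ± 0.338, limma adjusted p = 0.0399), and its KO and WT means of 5.87 and 5.20 lie about the background level. At an unadjusted p under 0.05, 8 were higher and 2 lower, against 27.5% of all probe sets in either direction. With arrays centred on the housekeeping set, 5 were called lower and 1 higher, while with enterocyte markers as the centre 0 were lower and 11 higher. The call on Il1b was lost with the RNA integrity number in the fit (adjusted p = 0.0717) and without pair 1, 2 or 3 (adjusted p = 0.113, 0.131 and 0.0940).

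The interleukin-22 pathway, which drives Reg3b and Reg3g, did not pass the test at any step measured. Il22, the cytokine gene, had means near background (5.69 in KO and 5.74 in WT) and a difference of −0.06 ± 0.261 (limma adjusted p = 0.769). Il22ra1, its receptor chain on epithelium, differed by 0.13 ± 0.114 (adjusted p = 0.335), and Stat3 by 0.04 ± 0.107 (adjusted p = 0.795). Socs3, a target and inhibitor of STAT3, differed by 0.15, 0.07, 1.19 and 0.86 in pairs 1 to 4 (mean 0.57 ± 0.546, adjusted p = 0.127). RNA levels do not show whether STAT3 was active.

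The Reg3 genes were then set beside other antimicrobial effectors of the epithelium. Of 21 measured, 9 rose and 1 fell, with a median difference of 0.34, and the shares called higher and lower over all probe sets were 3.16% and 2.70%. The list was chosen with earlier results of these data known, so its counts beside these shares are no test of the list. Lcn2, whose product lipocalin-2 withholds iron from bacteria, rose by 3.16 ± 0.305 (limma adjusted p = 4.0e-04), with 2.94, 3.49, 2.86 and 3.34 in pairs 1 to 4. Duoxa2, the maturation factor of an epithelial oxidase that makes hydrogen peroxide, rose by 2.46 ± 0.394 (adjusted p = 0.00183). Nos2, the inducible nitric oxide synthase gene, rose by 2.55 ± 0.989 (adjusted p = 0.0167), and the acute-phase gene Saa1 by 2.69 ± 1.55 (adjusted p = 0.0397).

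Further risers included Fut2, which adds fucose to mucosal glycans (2.17 ± 0.727, limma adjusted p = 0.0129), and Pglyrp1, a peptidoglycan recognition protein (1.65 ± 0.315, adjusted p = 0.00355). Lypd8, which keeps flagellated bacteria off the epithelium, rose by 0.34 ± 0.0779 (adjusted p = 0.0454). The gene that fell was Ang4, a bactericidal ribonuclease of Paneth cells (−1.84 ± 1.15, adjusted p = 0.0477), which differed by −0.17 in pair 3. Of the 21 effectors, 17 had means above the background level of 5.65, and a fit of only such probe sets called 8 of them higher and 1 lower. Without pair 1, 2, 3 or 4 the counts of effectors called higher were 5, 4, 5 and 8, and those called lower 0, 0, 3 and 0. Centred on housekeeping genes, 9 were called higher and 5 lower, and on enterocyte markers 14 and 2. The call on Saa1 was lost without pair 1, 2 or 3 (limma adjusted p = 0.102, 0.127 and 0.0691), that on Ang4 without pair 1, 2 or 4 (0.129, 0.149 and 0.126), that on Fut2 without pair 2 (0.0505) and that on Lypd8 when any 1 pair was left out (0.102 to 0.155). Reg3g and Reg3b, at 0.28 and 0.14, had differences below the smallest rise among the 9, that of Lypd8. The 9 had passed the threshold that Reg3g and Reg3b missed, so this order follows largely from the choice. Over all 21 effectors the median difference was 0.34, with single genes from −1.84 to 3.16. Whether Reg3g and Reg3b differ from the effectors was not tested, and both sat near the upper end of the scale.

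**Figure D5:**
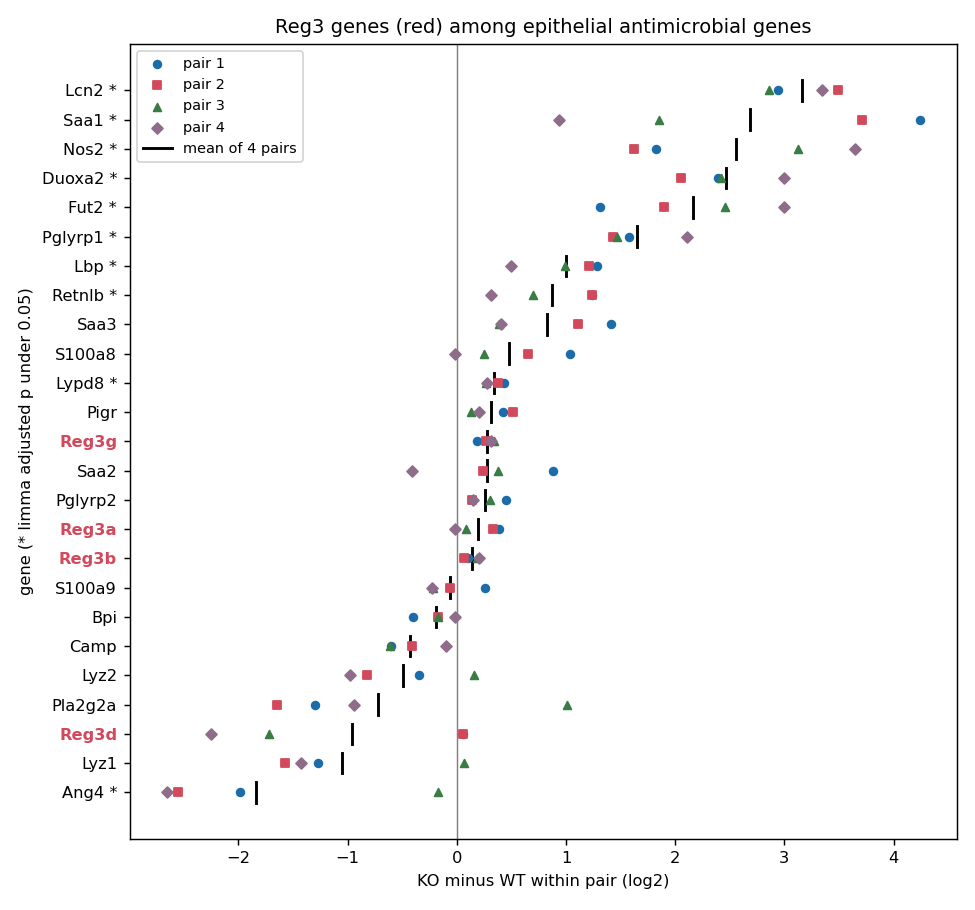
KO minus WT difference on the log2 scale of 21 antimicrobial effector genes of the epithelium and of the 4 Reg3 genes (red names), with the sibling pairs as points, their mean as a bar and an asterisk where the limma adjusted p is under 0.05. Lcn2, at 3.16, stands at the top, Reg3g and Reg3b stand at 0.28 and 0.14, and Ang4 and Reg3d are below 0.

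Other lectins of the gut and Extl3, the receptor proposed for several Reg proteins, gave a mixed picture. Of 12 measured, 1 was called higher and 1 lower, with a median difference of −0.03. The split became 1 higher and 4 lower with housekeeping genes as the centre and 5 higher and 1 lower with enterocyte markers. Lgals9, which encodes galectin-9, rose by 0.57 ± 0.144 (limma adjusted p = 0.0204), and Clec2e, a C-type lectin-like gene of gut epithelium, fell by 0.50 (SD 0.0990, adjusted p = 0.0215). Both calls were lost with sex in the fit (adjusted p = 0.0502 and 0.0525) and without pair 1, 2 or 4 (0.0728, 0.0879 and 0.0652 for Lgals9), and that of Clec2e when any 1 pair was left out (0.0664 to 0.0784). Extl3 differed by 0.43, 0.05, 0.15 and 0.11 in pairs 1 to 4 (mean 0.185 ± 0.168, adjusted p = 0.225).

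Across the 7 members, 3 had groups that did not overlap, Reg3b, Reg3g and Reg4, against 33.1% of all probe sets. The same 3 had 1 direction in all 4 pairs, against 34.4%. Because pair means were evened out before deposit, the lack of overlap and the shared direction are largely the same observation. The fit without the sibling block called 5 members, Reg3a, Reg3b and Reg3g higher and Reg2 and Reg4 lower, again against 34.4% of all probe sets. That fit treats siblings as independent, so its p-values are too small. An unadjusted p under 0.05 with the block was reached by 3 members, Reg2, Reg3g and Reg4, against 27.5% of all probe sets.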

How the data were processed

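RNA of 8 mice was labelled with the WT PLUS kit and hybridised to Clariom S arrays, per the labels' protocols. The tissue was duodenum by the series design and small intestine by the sample labels. The authors deposited log2 values per probe set, which the submitters' processing notes tie to RMA and to Transcriptome Analysis Console 4.0. The pair means had been evened out by a step of which the sources used here say nothing: the median SD of the 4 pair means was 0.0175, against 0.0897 expected from the within-pair differences, and 70.0% of probe sets had 4 pair means within 0.05. The deviations of 2 siblings from their groups correlated between −0.913 and −0.870. The pairing comes from the labels, which name littermate siblings.

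R 4.3.3 with limma 3.58.1 tested the differences (functions lmFit and eBayes, sibling pair as a fixed block), with Benjamini-Hochberg adjustment over 22206 probe sets, 3 residual and 6.63 total degrees of freedom. The fit was also run on simulated data with noise drawn independently for each pair. That run cannot judge the p-values where pairs share structure. Over all probe sets the 4 differences correlated at 0.682 between pairs 1 and 2, at 0.673 between pairs 3 and 4 and at 0.346 to 0.420 otherwise. A genotype effect common to the pairs also gives positive correlation, so these values do not measure dependence alone. Structure shared by pairs 1 and 2 or by pairs 3 and 4 is not allowed for in the p-values. The number of arrays limits the precision. All p-values are two-sided. Symbols came from the probe annotation: 19572 probe sets had 1 symbol, 2634 are unnamed here, and all 19572 gene IDs were in the RefSeq table of GRCm38.p6, as were the promoters. Windows were aligned with Biopython 1.88 (global, match 1, mismatch −1, gap opening −2, gap extension −0.5).

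The members and lists were chosen with earlier results of these data known, so their counts beside the shares over all probe sets are no test. Named are all members, Nfkbia, up to 4 called genes with the widest difference of each functional list, the 2 highest genes of each marker list, and the 3 nearest patterns to Reg4, Reg1 and Reg2. Others were named after their values were seen: Onecut2, Gata4, Amy2a5, Pnliprp2, Ang4, Fut2, Pglyrp1, Lypd8, Nupr1, Habp2, Tac1, Chga, Sct, Socs3, Il22, Il22ra1, Extl3, Stat3, Gfi1, Tpsg1, Lct, Treh, Muc5ac, Pgc, Nkx6-1, Cd4 and Il7r. Other settings were quantile normalization, 2 centrings, 2 filters on dim probe sets, trend and robust variance, array weights, the block dropped or made random, RNA integrity or sex added to it, each pair left out, pairs 1 and 2 or 3 and 4 alone, and a threshold of 0.10.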

Additional observations from a re-analysis of the deposited data

Results flagged for a closer look

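Dixon's test was applied to 21 groups of 4 values, the KO values, the WT values and the within-pair differences of the 7 Reg genes, and 2 groups passed its critical value. Chance marks about 1 in 20 groups. In Reg1 the WT array of pair 2, at 7.20 on the log2 scale, stood apart from the other WT arrays, with a gap of 0.902 of the range of the group. In Reg4 the WT array of pair 1, at 10.48, stood apart, with a gap of 0.925 of a narrow range. Since pair means were evened out before deposit, a WT value far from its group mirrors that of its KO sibling, and which of the siblings differs cannot be told apart.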

How the results depend on the processing

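Of 126 values of the members under other settings, 107 kept their direction and their side of the threshold, 14 passed it newly, 3 no longer passed it (all of Reg4) and 2 reversed: Reg3b centred on housekeeping genes (−0.0393) and Reg3d with pairs 1 and 2 only (0.06). Main counts were 1 member and 1301 probe sets called. Without the sibling block they were 5 and 7648, and the exact permutation p of Reg3a, Reg3b and Reg3g against Reg4 was 0.0286, the smallest that 4 against 4 values give, with contrasts of 1.75, 1.69 and 1.83. Both the fit and the permutation without the block treat the 2 siblings of a pair as independent. Pair means had been evened out, so these p-values overstate the evidence and do not add to the sign-flip test. Other counts of members and probe sets were 2 and 2018 with a random block, 2 and 6231 centred on housekeeping genes, 7 and 7651 on enterocyte markers (which moved the median difference of all probe sets to 0.395, with 1 common variance), 2 and 1997 with trend and robust variance, 2 and 3304 at a threshold of 0.10, 0 and 0 with pairs 1 and 2 only (limma, 5278 at an unadjusted p under 0.05), and 0 and 26 with pairs 3 and 4 only. Probe sets called were 464 with sex and 364 with RNA integrity in the fit. Leaving out each pair gave 0 to 1 members (0 without pair 2) and 145 to 459 probe sets (204, 145, 459 and 239 without pairs 1 to 4), and contrasts with Reg4 of 1.41 to 1.96 for Reg3a, 1.43 to 1.81 for Reg3b, 1.59 to 1.95 for Reg3g and −0.02 to 1.16 for Reg3d.

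Of 31 other named genes called in the reported fit, 0 lost the call without the block, 9 with a random block, 15 with sex, 18 with RNA integrity, 2 with quantile normalization, 2 and 11 centred on housekeeping and enterocyte genes, 5 with trend and robust variance, 1 with array weights, 20, 23, 14 and 19 without pairs 1 to 4, and all 31 with pairs 1 and 2 or 3 and 4 only. Clps, Pnliprp2, Lcn2, Duoxa2 and Pglyrp1 lost it only in those last 2 settings. Saa1 lost it with sex, RNA integrity and trend (adjusted p = 0.0782, 0.0904 and 0.138), Nos2 with RNA integrity and trend (0.0517 and 0.0634), Ang4 with the random block, RNA integrity and trend (0.0591, 0.0521 and 0.152) and Lct with trend (0.109). Without the block, higher and lower calls were 9 and 3 for upstream genes, 13 and 5 for effectors, 4 and 3 for lectins, 2 and 12 for enteroendocrine, 1 and 9 for Paneth and 0 and 15 for acinar genes.

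Reversed values of other genes, none called in the reported fit except Tpsg1 and Nkx6-1, were as follows. Centred on enterocyte markers: Spink1 0.258, Sst 0.305, Cck 0.385, Clca1 0.383, Apoa1 0.228, Anpep 0.16, Csf1r 0.323, Lipe 0.138, Il22 0.353, Tpsg1 0.0226 and Nkx6-1 0.0301. Centred on housekeeping genes: Muc2 −0.0993, Il22ra1 −0.0517 and Stat3 −0.142. With pairs 1 and 2 only: Sst 0.065, Cck 0.305, Muc2 −0.14, Csf1r 0.03, Amy2a5 1.16, Il22 0.16 and Stat3 −0.05. With pairs 3 and 4 only: Slc2a2 −0.055, Clca1 0.03 and Cidec −0.6. With 1 pair left out in turn: Slc2a2 −0.317 to 0.61, Cck −0.257 to 0.133, Muc2 −0.00667 to 0.163, Csf1r −0.163 to 0.03, Cidec −0.01 to 0.667, Il22 −0.137 to 0.0433 and Stat3 −0.01 to 0.0667. Cck was 0.0245 with RNA integrity and 0.000726 with array weights, and Stat3 −0.005 with quantile normalization. The causes were not tested.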

Other observations

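Immune and adipose genes were measured in the same tissue. Of 9 genes of T cells and innate lymphoid cells, which are known sources of interleukin-22 and interleukin-17, 1 was called higher, Cd4 (0.40 ± 0.134, limma adjusted p = 0.0427), and 1 lower, the interleukin-7 receptor gene Il7r (−0.47 ± 0.176, adjusted p = 0.0355). At an unadjusted p under 0.05, 6 were lower and 2 higher, against 27.5% of all probe sets in either direction. The median difference of the list was −0.34. Both calls were lost when any 1 pair was left out, with adjusted p-values from 0.0878 to 0.146 and from 0.0807 to 0.109. The granzyme genes Gzma and Gzmb differed by −0.50 ± 0.547 and −0.54 ± 0.576 and were not called. Of 8 neutrophil and macrophage genes, limma with the block called 0, with 1 at an unadjusted p under 0.05, and Lyz2 and Csf1r differed by −0.50 ± 0.513 and −0.09 ± 0.252. Of 9 adipose genes 0 were called, with 6 higher at an unadjusted p under 0.05, against 2940 of all 22206 probe sets higher. The adipose medians were 2.08, 1.64, 0.19 and −0.18 in pairs 1 to 4, while Lipe and Cidec differed by −0.27 ± 0.392 and 0.32 ± 1.07.

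Regional regulators of the duodenum were looked at beside the pattern of Reg1 in pair 2. Onecut2, a transcription factor of the proximal bowel, differed by 0.46, 2.91, 0.70 and 1.55 in pairs 1 to 4 (limma adjusted p = 0.0767). Pdx1, a factor of duodenum and pancreas, differed by −0.07, 1.90, 1.76 and 2.03 (adjusted p = 0.0612), and Gata4, a factor of the proximal small intestine, by −0.42, 0.93, 0.25 and 0.54 (adjusted p = 0.344). The glucose transporter gene Slc2a2 differed by −0.84, 1.94, 0.02 and −0.13 (adjusted p = 0.729). Pair 2 held the highest difference for Onecut2, Gata4 and Slc2a2 but not for Pdx1, and the position along the bowel from which each sample came was not tested.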
